A study of Mus musculus with 6 samples.

Results

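Surface proteins used to enrich spermatogonial stem cells are described here at the RNA level: Thy1, on which these cells were sorted, and Itga6, Itgb1, Epcam, Cd9, Cdh1, Adgra3, Mcam and Cd24a. The 9 genes were chosen by symbol, through GENCODE M21 on mm10, from the 22579 genes counted. Each matched 1 gene of the table, and all 9 passed the filter on low counts. RNA was counted in 3 libraries of Ddx20 knockout spermatogonia and in 3 libraries from control littermates. All libraries were from mouse THY1-positive spermatogonia at day 4, with about 1000 cells in each. The labels also call the knockout cKO, and they name neither the promoter that drives the deletion nor the deleted exons. The control genotype is given as control without alleles. DDX20 (Gemin3) belongs to the SMN complex, which assembles spliceosomal snRNPs.

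Spermatogonial stem cells are rare cells on the basement membrane of the seminiferous tubule, and no single surface protein marks them alone. They are enriched by antibodies against adhesion molecules, such as the integrin chains alpha 6 and beta 1 that bind laminin in that membrane. THY1 is a glycoprotein held in the membrane by a GPI anchor, and it is also found on T lymphocytes, neurons and some fibroblasts. EPCAM and E-cadherin, the product of Cdh1, are epithelial adhesion proteins that germ cells also carry. CD9 is a tetraspanin, ADGRA3 (formerly GPR125) an adhesion G protein-coupled receptor, MCAM an adhesion protein of the immunoglobulin family and CD24 a small GPI-anchored sialoglycoprotein.

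Ddx20 had 128, 168 and 119 reads in the knockout libraries, against 668, 383 and 531 in the control libraries. Depth was 11656130 to 12497967 counted reads in knockout libraries and 8428871 to 11893287 in control libraries. Knockout 1 and knockout 2 formed the most similar pair, with a mean chi-square per gene of 1.78 against 11.96 to 104 in the other 14 pairs, where sampling noise alone gives about 1. They were entered as separate libraries, and the pair was also counted as 1 library. Mitochondrially encoded transcripts took 19.8% to 20.1% of reads in knockout libraries and 14.0% to 16.9% in control libraries. Germ cell markers were present in every library: Dazl, an RNA-binding protein gene of germ cells named for its role after its values were seen, stood at 3003 to 3323 CPM in knockout libraries and at 2501 to 3228 CPM in control libraries. CPM is the usual unit of reads relative to library size, here the size scaled by TMM, a scaling that allows for differences in RNA composition.

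Promoter sequences are shown for Cd9, the marker with the highest RNA level, and for Itgb1 and Epcam, whose groups overlapped between genotypes. They come from RefSeq on GRCm38.p6, whose promoters matched 5 of the 9 markers. Each run covers the 250 bases before the RefSeq start, without the bases that GENCODE M21 places inside the gene. Capitals mark the GC box, GGGCGG or its reverse complement CCGCCC, a short element bound by SP family transcription factors. Cd9 is at chr6:125494792-125495010 on the minus strand, Itgb1 at chr8:128685404-128685653 on the plus strand and Epcam at chr17:87635729-87635978 on the plus strand.
Cd9: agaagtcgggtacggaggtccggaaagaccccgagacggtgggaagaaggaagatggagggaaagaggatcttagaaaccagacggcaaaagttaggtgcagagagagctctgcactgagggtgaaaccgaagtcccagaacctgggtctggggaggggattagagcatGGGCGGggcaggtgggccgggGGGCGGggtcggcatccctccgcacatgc
Itgb1: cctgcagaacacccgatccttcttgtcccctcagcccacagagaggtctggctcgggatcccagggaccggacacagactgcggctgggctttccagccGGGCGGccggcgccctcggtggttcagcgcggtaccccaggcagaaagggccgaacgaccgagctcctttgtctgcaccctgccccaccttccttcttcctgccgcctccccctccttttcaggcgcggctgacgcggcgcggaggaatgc
Epcam: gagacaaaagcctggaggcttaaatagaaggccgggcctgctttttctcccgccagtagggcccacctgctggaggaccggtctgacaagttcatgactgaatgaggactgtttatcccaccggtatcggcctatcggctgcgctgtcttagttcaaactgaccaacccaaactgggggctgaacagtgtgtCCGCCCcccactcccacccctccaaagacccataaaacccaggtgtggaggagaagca

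The GC box occurred 2 times in the Cd9 run and 1 time each in those of Itgb1 and Epcam, counting both strands. Over the whole 250 bases, Adgra3 held 1 box and Mcam held 5, so all 5 matched markers held at least 1. Of 32851 RefSeq promoter windows of the same length, 32.7% held one. GC content of the 250 bases was 61.6% for Cd9, 68.0% for Itgb1, 56.4% for Epcam, 71.6% for Adgra3 and 73.6% for Mcam. A match of these letters describes the sequence and shows no binding.

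Itga6 was the only marker that passed edgeR's test between knockout and control, and it was lower in the knockouts. Across all 14766 genes tested by quasi-likelihood, 713 genes (4.83%) passed at a Benjamini-Hochberg adjusted p under 0.05, of which 413 (2.8%) were lower and 300 (2.03%) higher in the knockouts. Among the 9 markers 1 fell, 0 rose and 8 did not pass. DESeq2 called 4 of the 9 markers and 11.1% of all genes, and limma-voom called 4 markers and 19.5% of all genes. In edgeR, library size scaling gave 3 markers (9.33% of all genes), DESeq2 size factors 2 (4.78%), no filter on low counts 2 (4.25%) and a stricter filter 2 (11.2%). Without control 3 edgeR called 4 markers and 5.27% of all genes, and without knockout 1, 2 or 3 it called 0 markers and 0.0325%, 0.065% and 0.0194% of all genes. With knockout 1 and knockout 2 counted as 1 library, edgeR called 0 markers and 0.00649% of all genes, which is 1 gene. DESeq2 then called 1 marker (3.04% of all genes) and limma-voom 1 marker (3.28%), in both cases Itga6. At an unadjusted edgeR p under 0.05 there were 6 of 9 markers, against 24.1% of all genes tested. Library groups did not overlap in CPM for 6 of 9 markers, 4 lower and 2 higher, against 32.6% of all genes tested. The median log2 fold change of the markers was −0.47, against 0.01 over all genes tested. The markers were chosen with earlier results of these data known, so these counts are descriptions. In bulk libraries fewer cells of a type and less RNA per cell cannot be told apart.

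**Figure D1:**
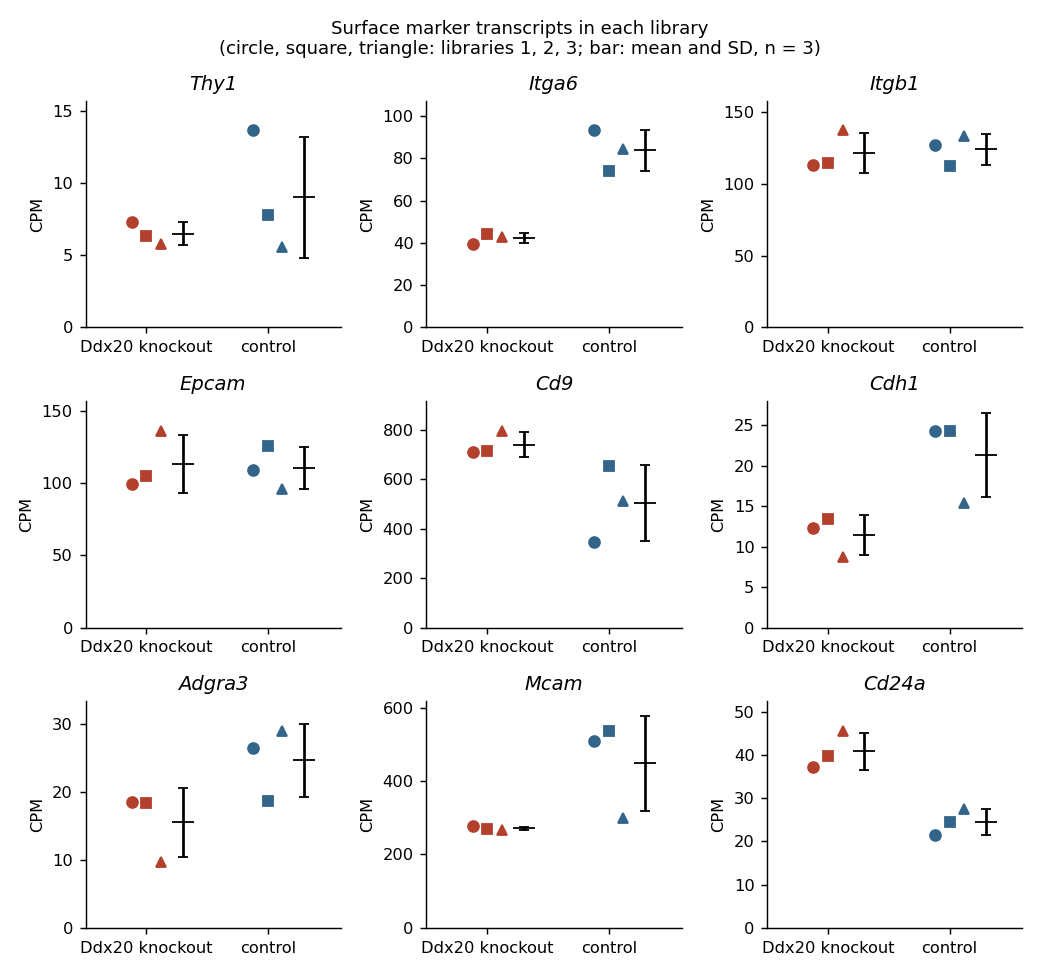
Level of the 9 markers in each library as CPM on axes from 0, with Ddx20 knockout libraries in red and control libraries in blue, and with bars for the mean and SD over 3 libraries per group. Itga6 lies between 39.7 and 44.3 CPM in knockouts and between 73.9 and 93.3 CPM in controls, whereas the groups of Thy1, Itgb1 and Epcam overlap.

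Thy1, the gene of the protein used for the sort, was low in RNA level relative to most of the other markers in both genotypes. Its gene spans 44043384 to 44048579 of chromosome 9 (mm10, plus strand), with 2995 bases of exon in 5 blocks. There were 79, 70 and 64 reads in the knockout libraries, against 143, 82 and 73 in the control libraries. This gave 7.34, 6.35 and 5.76 CPM in knockouts, against 13.7, 7.78 and 5.60 CPM in controls. Control 1 held the highest value and control 3 the lowest of all 6 libraries, so the knockouts lay within the range of the controls. The means were 6.48 ± 0.80 CPM in knockouts and 9.01 ± 4.17 CPM in controls (SD, n = 3 each). Thy1 had a log2 fold change of −0.47 ± 0.38 (SE), at an edgeR adjusted p of 0.493. Without control 1 the log2 fold change was −0.05, and without control 3 it was −0.73, with edgeR adjusted p values of 0.953 and 0.220. The values are shares of each library's RNA and give no measure of THY1 protein at the surface.

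Levels of different genes were compared per kilobase of exon, as RPKM, which is CPM divided by exon length in kilobases. Thy1 stood at 1.92 to 2.45 RPKM in knockouts and at 1.87 to 4.56 RPKM in controls. Among all tested genes this placed it between percentiles 43.3 and 47.9 in knockout libraries and between 42.6 and 61.9 in control libraries. Cd9 was the most abundant marker in both groups, with 362 ± 24.0 RPKM in knockouts and 247 ± 75.6 RPKM in controls (SD, n = 3 each). Mcam followed with 81.0 ± 1.45 RPKM in knockouts and 134 ± 38.8 RPKM in controls, and Epcam with 51.6 ± 9.12 and 50.2 ± 6.69 RPKM in knockouts and controls. Itgb1 had 29.8 ± 3.35 RPKM in knockouts and 30.5 ± 2.63 RPKM in controls. In knockouts the order then ran from Cd24a at 15.8 ± 1.67 RPKM to Itga6 at 4.68 ± 0.26 RPKM, and their ranges did not overlap. In controls Cd24a at 9.46 ± 1.16 RPKM and Itga6 at 9.30 ± 1.07 RPKM did overlap. Cdh1, Thy1 and Adgra3 were the lowest of the 9 in both groups, at means of 2.51, 2.17 and 1.92 RPKM in knockouts and 4.67, 3.01 and 3.05 RPKM in controls. Within each group the ranges of Thy1 overlapped those of its neighbours in this order. With the length of the longest transcript in place of all exons, Itga6 in controls (17.2 to 21.7 CPM per kilobase) lay above Cd24a (11.8 to 15.1), so the order of these 2 genes in controls depends on the length used.

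**Figure D2:**
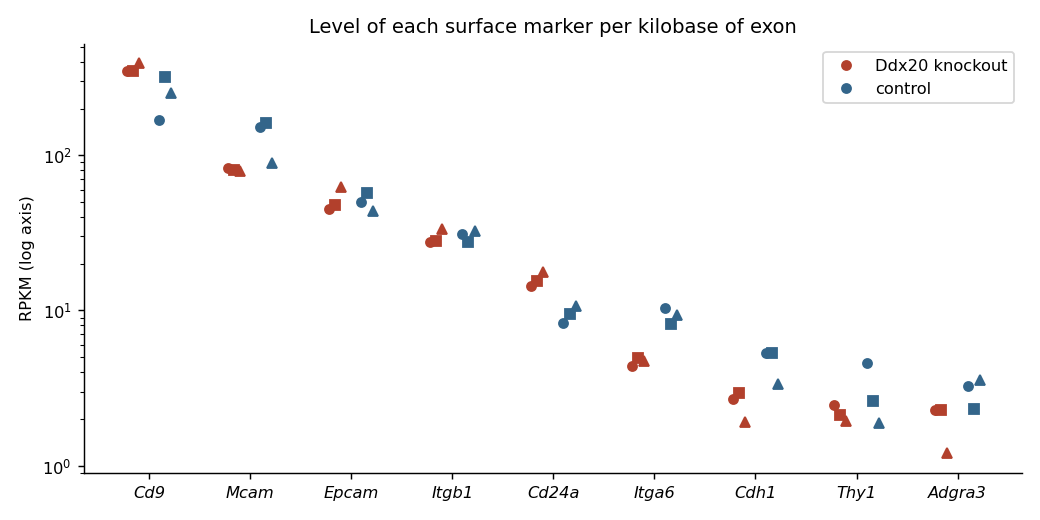
RPKM of each marker in each library on a log axis, with Ddx20 knockout in red left of control in blue. Cd9 is highest in both groups, and Cdh1, Thy1 and Adgra3 are lowest, with Thy1 between 1.87 and 4.56 RPKM over all 6 libraries.

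Of the integrin chains, Itga6 was called and Itgb1 was not. Itga6 encodes integrin alpha 6, which pairs with beta 1 or beta 4 to form laminin receptors, and lies on chromosome 2 at 71745616 to 71858416 on the plus strand. It had 427, 488 and 475 reads in knockouts, against 977, 779 and 1102 in controls. This gave 39.7, 44.3 and 42.8 CPM in knockouts, against 93.3, 73.9 and 84.5 CPM in controls. Every knockout library lay below every control library, and the knockouts lay within 5 CPM of each other. Itga6 fell by 0.99 ± 0.16 (SE) on the log2 scale (edgeR adjusted p 0.0138), the mean of the controls being 1.99-fold that of the knockouts. After trends with gene length and GC content were taken out of each library, the log2 fold change was −0.78 (edgeR adjusted p 0.0213). With knockout 1 and 2 counted as 1 library the edgeR adjusted p was 0.112, and the log2 fold change was −0.98. Without knockout 1, 2 or 3 the edgeR adjusted p was 0.117, 0.0961 and 0.0630. With the pair as 1 library, DESeq2 gave an adjusted p of 0.00480 and limma-voom one of 0.0120.

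Itgb1, the beta 1 chain shared by many integrins, lies on chromosome 8 at 128685654 to 128733200 on the plus strand. It stood at 113, 114 and 137 CPM in knockouts, against 127, 112 and 133 CPM in controls. The groups overlapped fully, with knockout 3 the highest of the 6 libraries and control 2 the lowest. Their log2 fold change was −0.03 ± 0.15 (SE), and the edgeR adjusted p was 0.927. The sign turned under several alternatives, with values from 0.02 to 0.05, and library size scaling gave −0.31.

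Reads of Itga6 were also set against reads of the other markers within each library, a ratio that does not depend on how libraries are scaled. The log2 ratio of Itga6 to Itgb1 was −1.51, −1.37 and −1.68 in knockouts, against −0.44, −0.60 and −0.66 in controls. The groups did not overlap and differed by −0.95, with an exact two-sided permutation p of 0.1 and an adjusted p of 0.2 over the 8 ratios. The smallest p that 3 against 3 libraries allow is 0.1. The difference in log2 ratio was −1.02 to Epcam, −1.59 to Cd9 and −1.73 to Cd24a, again without overlap and with the same p values. To Thy1, Cdh1, Adgra3 and Mcam it was −0.60, −0.10, −0.28 and −0.31, and the groups overlapped (exact permutation p from 0.3 to 0.7). Itga6 was thus lower relative to 4 of 8 markers in every knockout library than in every control library. Those 4 markers had log2 fold changes from −0.03 (Itgb1) to 0.74 (Cd24a). The rest had log2 fold changes from −0.47 (Thy1) to −0.89 (Cdh1), though for Thy1 the knockouts lay within the range of the controls. All 8 ratios share the Itga6 reads, which edgeR had already called lower, so they restate that drop and are no separate support. Such ratios were not computed for other genes.

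**Figure D3:**
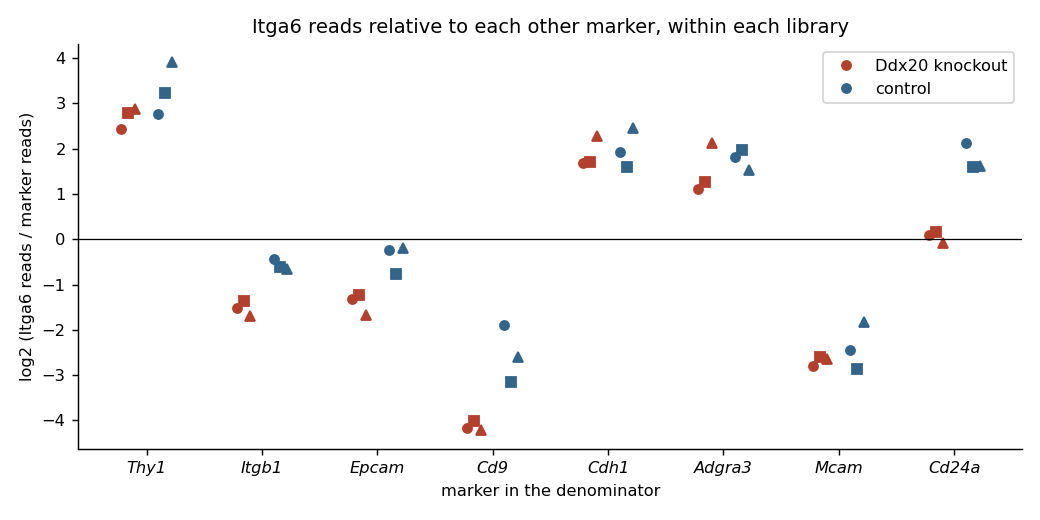
Log2 of Itga6 reads over the reads of each other marker, one point per library, with Ddx20 knockout in red left of control in blue. The groups are separate for Itgb1, Epcam, Cd9 and Cd24a and overlap for Thy1, Cdh1, Adgra3 and Mcam.

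The cadherin and the immunoglobulin family marker were also lower in knockout libraries but did not pass the test. Cdh1 lies on chromosome 8 at 106603351 to 106670246 on the plus strand, and E-cadherin joins cells through calcium-dependent contacts. It had 12.3, 13.4 and 8.73 CPM in knockouts, against 24.4, 24.3 and 15.4 CPM in controls. The groups did not overlap, with control 3 the lowest control and knockout 2 the highest knockout. Cdh1 had a log2 fold change of −0.89 ± 0.28 (SE), at an edgeR adjusted p of 0.0885. Cdh1 passed with DESeq2 (adjusted p 0.0453), with limma-voom (0.0257), with library size scaling (edgeR 0.0427) and without control 3 (edgeR 0.0489). When knockout 1 and 2 were 1 library Cdh1 did not pass, with adjusted p values of 0.252 by edgeR, 0.112 by DESeq2 and 0.0946 by limma-voom.

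Mcam lies on chromosome 9 at 44134469 to 44142727 on the plus strand. It had 277, 270 and 267 CPM in knockouts, against 509, 537 and 299 CPM in controls. The knockouts lay close together, and control 3 lay nearer to them than to the other controls. Mcam had a log2 fold change of −0.73 ± 0.22 (SE), at an edgeR adjusted p of 0.0817. Mcam passed with DESeq2 (adjusted p 0.0118), with limma-voom (0.00140), with library size scaling (edgeR 0.0215) and without control 3 (edgeR 0.0297, log2 fold change −0.95). Counting knockout 1 and 2 as 1 library, Mcam did not pass, with adjusted p values of 0.2803 by edgeR, 0.0572 by DESeq2 and 0.0506 by limma-voom. Exons of Mcam and of the antisense gene Gm10687 overlap by 17 bases, and Gm10687 had 181 reads over all 6 libraries.

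Adgra3, on chromosome 5 at 49959956 to 50059006 on the minus strand, had 18.5, 18.4 and 9.72 CPM in knockouts, against 26.5, 18.7 and 29.1 CPM in controls. The groups were separated only by the narrow gap between knockout 1 and control 2. Adgra3 had a log2 fold change of −0.67 ± 0.29 (SE), at an edgeR adjusted p of 0.191. It was −0.34 by limma-voom, with an adjusted p of 0.302, and −0.43 without knockout 3, with an edgeR adjusted p of 0.366.

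The tetraspanin and CD24 genes lay above their controls. Cd9 lies on chromosome 6 at 125460266 to 125494791 on the minus strand, and its protein organises integrins and other partners in the membrane. It had 710, 715 and 797 CPM in knockouts, against 346, 655 and 513 CPM in controls. The controls spread widely, control 1 being the lowest, and control 2 lay close below the knockouts. On the log2 scale the difference was 0.55 ± 0.23 (SE), at an edgeR adjusted p of 0.173. Without control 1 the log2 fold change was 0.34, with an edgeR adjusted p of 0.167. Exons of Cd9 overlap those of Gm26728 on the other strand by 218 bases. Cd9 made up 53.9% to 55.0% of the summed CPM of the 9 markers in knockouts and 27.2% to 42.6% in controls. The summed CPM itself was 1314 to 1451 in knockouts and 1203 to 1579 in controls. Without TMM scaling, the 9 markers took 0.121% to 0.129% of counted reads in knockouts and 0.132% to 0.158% in controls. The overlap of the sums thus depends on the scaling.

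Cd24a lies on chromosome 10 at 43578284 to 43584265 on the plus strand. It had 399, 439 and 506 reads in knockouts, against 224, 258 and 357 in controls. This gave 37.1, 39.8 and 45.5 CPM in knockouts, against 21.4, 24.5 and 27.4 CPM in controls. Every knockout library was above every control library. The log2 fold change was 0.74 ± 0.19 (SE), and the edgeR adjusted p of 0.05003 missed the threshold. Cd24a passed with DESeq2 size factors in edgeR (adjusted p 0.0498), without a filter on low counts (edgeR 0.0465), with a stricter filter (edgeR 0.0251), by DESeq2 (0.0124) and by limma-voom (0.0209). With knockout 1 and 2 counted as 1 library the adjusted p was 0.206 by edgeR, 0.0855 by DESeq2 and 0.0737 by limma-voom. Library size scaling gave a log2 fold change of 0.48 (edgeR adjusted p 0.174). With trends in gene length and GC content removed, the edgeR adjusted p was 0.0692. It was 0.187, 0.213 and 0.126 without knockout 1, 2 and 3, and 0.0594, 0.0928 and 0.0471 without control 1, 2 and 3.

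Epcam, on chromosome 17 at 87635979 to 87651129 on the plus strand, overlapped between the groups. It had 99.1, 105 and 136 CPM in knockouts, against 109, 125 and 96.0 CPM in controls. The lowest library was control 3 and the highest knockout 3. On the log2 scale the difference was 0.04 ± 0.17 (SE), at an edgeR adjusted p of 0.916. It was −0.22 with library size scaling and −0.18 after trends with gene length and GC content were taken out of each library.

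**Figure D4:**
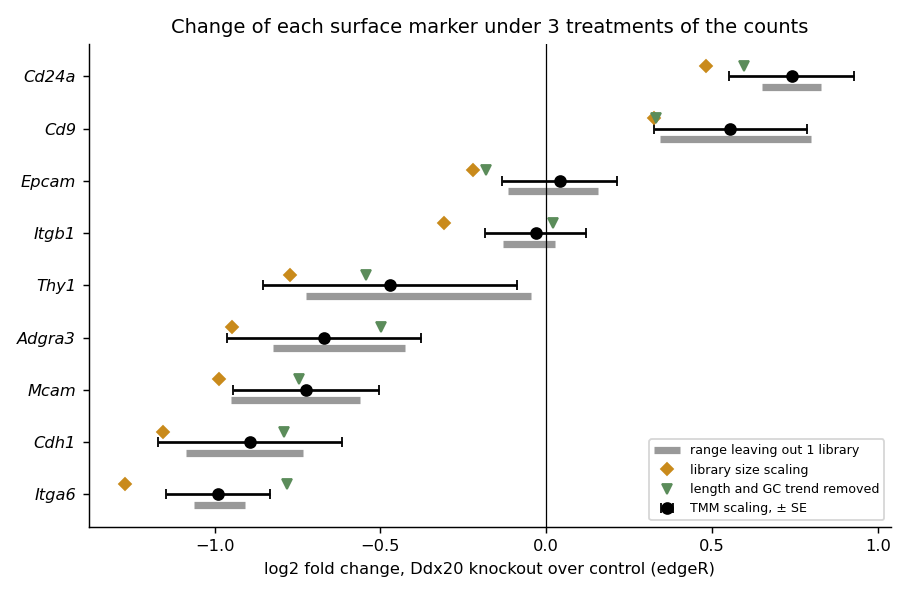
Log2 fold change of each marker, Ddx20 knockout over control, by edgeR: black points with SE for TMM scaling, grey bars for the range when 1 of the 6 libraries is left out, diamonds for library size scaling and triangles after correction for gene length and GC content. Itga6, Cdh1, Mcam, Adgra3 and Thy1 lie below 0 and Cd9 and Cd24a above 0 in every treatment drawn, while Epcam and Itgb1 change sign.

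Directions in the text are relative to TMM scaling. Over all genes tested the median was −0.26 with library size scaling, against 0.01 with TMM, and 83.6% of the genes called were lower in the knockouts, against 57.9% with TMM. Of the markers only Epcam changed sign with library size scaling, to −0.22. The others kept their direction, from −1.27 for Itga6 to 0.48 for Cd24a.

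Other surface proteins that mark or exclude stem cells were taken from a list of 15 genes, all tested. Of these 3 fell, 0 rose and 12 did not pass, where 2.8% of all genes tested fell and 2.03% rose. Their median log2 fold change was −0.39 against 0.01 over all genes. At an unadjusted edgeR p under 0.05 there were 4 lower and 3 higher, against 24.1% of all genes in either direction. DESeq2 called the same 3 genes as edgeR, and limma-voom called these and also Prnp and Tspan8, both higher. They called 11.1% and 19.5% of all genes. Kit, the stem cell factor receptor of differentiating spermatogonia, had 15.8, 13.3 and 17.5 CPM in knockouts, against 32.5, 28.3 and 33.6 CPM in controls. Gfra1 and Ret, which together form the receptor for GDNF, also fell (log2 fold changes −0.69 and −0.67). For all 3 genes every knockout library lay below every control library, and edgeR adjusted p values were 0.0269 to 0.0415. By edgeR all 3 calls were lost with knockout 1 and 2 as 1 library, without any 1 knockout, without control 2 and after correction for gene length and GC content. B2m, the light chain of MHC class I, which stem cells carry at a low level, had 2614, 2530 and 2936 CPM in knockouts, against 944, 2472 and 1549 CPM in controls (log2 fold change 0.70, edgeR adjusted p 0.194). Itgav, whose protein is used to exclude cells from a stem cell sort, had a log2 fold change of −0.04 ± 0.27 (SE). B2m and Itgav were chosen for their role after their values were seen, and Prnp and Tspan8 were also named after theirs were seen.

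Partners of the markers were described in 9 further lists. Of all genes tested, 24.1% had an unadjusted edgeR p under 0.05 in either direction. EdgeR called 2.8% lower and 2.03% higher, and DESeq2 and limma-voom called 11.1% and 19.5% in either direction. Of 18 tested integrin chains other than Itga6 and Itgb1 none was called by edgeR, and none had an unadjusted p under 0.05 (median log2 fold change −0.16). DESeq2 called 0 of them and limma-voom 1, Itga1, as higher. Itgb4, the other partner of alpha 6, was at 0.90 to 1.27 CPM in knockouts and 0.38 to 1.92 CPM in controls, against 113 to 137 and 112 to 133 CPM for Itgb1 in knockouts and controls. Itga3, another laminin-binding chain, had a log2 fold change of −0.91 ± 0.48 (SE) that did not pass. Itga1, Itgb4, Itga3, Lama2 and Lama3 were named after their values were seen. Among 10 tested laminin chains none was called and 1 had an unadjusted p under 0.05, which was Lamb1, with 77.7, 73.6 and 85.5 CPM in knockouts, against 152, 97.9 and 101 CPM in controls (edgeR adjusted p 0.104, named after its value was seen). DESeq2 called 0 laminin chains, and limma-voom called Lama3 and Lamb1 as lower and Lama2 as higher. Of 18 integrin adaptors 1 fell: Ptk2, the gene of focal adhesion kinase, had 37.9, 40.2 and 48.8 CPM in knockouts, against 89.3, 76.5 and 59.9 CPM in controls (log2 fold change −0.83, edgeR adjusted p 0.0376). After correction for gene length and GC content the edgeR adjusted p of Ptk2 was 0.0727, and when 1 library was left out it was 0.2002, 0.189 and 0.0783 without knockout 1, 2 and 3 and 0.0517 and 0.0898 without control 1 and 2. With knockout 1 and 2 as 1 library it was 0.197 by edgeR, 0.0611 by DESeq2 and 0.0528 by limma-voom. Of the 18 adaptors, 2 were lower and 2 higher at an unadjusted edgeR p under 0.05 (median log2 fold change −0.02). With all 6 libraries, DESeq2 called Lims2 as higher beside Ptk2, and limma-voom called Tns3 as lower and Parva as higher beside Ptk2. Lims2, Tns3 and Parva were named after their values were seen.

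Among 10 cadherins and catenins none was called by edgeR, and 4 had an unadjusted p under 0.05, all lower, where 24.1% of all genes reach that p in either direction (median −0.41). These were Cdh3, Ctnnb1, Ctnna1 and Ctnnd1. DESeq2 called 1, Ctnna1, as lower, and limma-voom 3, with Cdh3 and Ctnna1 lower and Ctnnd2 higher. The groups did not overlap in 5 of them, all lower, against 15.8% of all genes tested. Ctnnb1, the gene of beta-catenin, which binds the tail of E-cadherin, had 143, 148 and 133 CPM in knockouts, against 291, 175 and 173 CPM in controls (edgeR adjusted p 0.122). Ctnna1, the gene of alpha-catenin, had 67.9, 65.0 and 78.7 CPM in knockouts, against 117, 106 and 85.8 CPM in controls (edgeR adjusted p 0.0820). These genes were named after their values were seen.

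Of 23 tetraspanins and CD9 partners 2 rose, 0 fell and 21 did not pass, where 2.03% of all genes tested rose, and the median log2 fold change was 0.61. DESeq2 called 4 and limma-voom 7 of them, all higher, where they called 11.1% and 19.5% of all genes in either direction. The groups did not overlap in 9 of the 23, all higher in the knockouts, against 16.8% of all genes tested. Tspan13 had 42.7, 46.1 and 35.9 CPM in knockouts, against 12.3, 18.4 and 23.8 CPM in controls (log2 fold change 1.19, edgeR adjusted p 0.0300). Tspan6 had 31.0, 35.7 and 38.7 CPM in knockouts, against 7.07, 18.9 and 15.6 CPM in controls (log2 fold change 1.34, edgeR adjusted p 0.0402). Without any 1 knockout or without control 2 neither passed, with edgeR adjusted p values of 0.0586 to 0.158, and without control 3 Tspan6 did not pass (0.0651). With knockout 1 and 2 as 1 library the edgeR adjusted p was 0.154 for Tspan13 and 0.152 for Tspan6, and both passed by DESeq2 (0.0277 and 0.0213) and by limma-voom (0.0221 and 0.0176). Cd81 and Cd63, relatives of Cd9 named after their values were seen, stood at log2 fold changes of 0.58 and 0.85 (edgeR adjusted p 0.152 and 0.121). Ptgfrn and Igsf8, immunoglobulin family partners of CD9 also named afterwards, stood at −0.49 and −0.16, and their groups overlapped.

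None of 10 tested EPCAM partners was called by edgeR, while 3 higher and 1 lower had an unadjusted p under 0.05 (median 0.62). The higher ones were Cldn4, Cldn6 and Fhl2, and the lower one was Adam17, the gene of a protease that cleaves EPCAM. DESeq2 called Adam17 as lower and Cldn6 as higher, and limma-voom called Adam17 as lower and Fhl2 and Psen2 as higher. None of 9 tested adhesion G protein-coupled receptors was called by edgeR (median −0.24), with 1 higher at an unadjusted p under 0.05, Adgrg6. DESeq2 called Adgrg6 as higher and limma-voom Adgrb3 as lower. Of 13 tested adhesion genes of the immunoglobulin family 1 fell (median −0.14): Cadm1 had 69.6, 68.9 and 93.7 CPM in knockouts, against 138, 114 and 118 CPM in controls (edgeR adjusted p 0.0488). The call of Cadm1 was lost with DESeq2 size factors, after the length and GC correction and when any 1 library was left out. For Cadm1 with knockout 1 and 2 as 1 library, the adjusted p was 0.261 by edgeR, 0.111 by DESeq2 and 0.110 by limma-voom. None of 26 tested GPI anchor genes, whose products attach THY1 and CD24 to the membrane, was called by edgeR (median −0.03), and 1 lower gene, Pigs, had an unadjusted p under 0.05. DESeq2 called 0 of them and limma-voom 1, Pigu, as lower. Against the counts of this paragraph stand 24.1% of all genes tested at an unadjusted edgeR p under 0.05, in either direction. DESeq2 called 11.1% and limma-voom 19.5% of all genes, and edgeR called 2.8% lower. The genes of this paragraph other than Cadm1 were named after their values were seen.

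**Figure D5:**
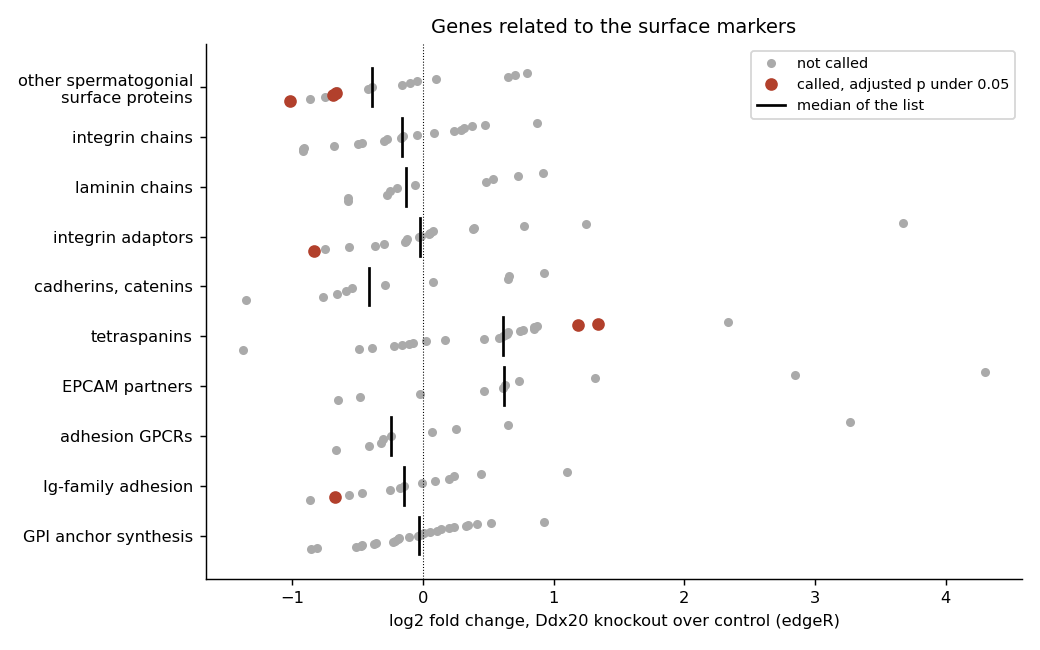
Log2 fold change, Ddx20 knockout over control, of each tested gene in 10 lists related to the markers, with called genes in red and the median of each list as a black bar. Kit, Gfra1, Ret, Ptk2 and Cadm1 are the called genes below 0, and Tspan13 and Tspan6 those above 0.

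Markers of the cells that a sort could hold were summed beside these results. Their counts of calls stand against 2.8% of all genes tested lower and 2.03% higher in the knockouts. The 19 companion genes called in any list all lost their call by edgeR with knockout 1 and 2 as 1 library, while DESeq2 kept 13, lost 4 and gave 2 no adjusted p, and limma-voom kept 13 and lost 6. Of 15 tested markers of undifferentiated spermatogonia, 3 fell (Foxc2, Gfra1 and Etv5) and 1 rose (Utf1). Their summed level was 480 to 499 CPM in knockouts and 668 to 765 CPM in controls. Their median log2 fold change was −0.65, with 9 lower and 1 higher at an unadjusted edgeR p under 0.05. In either direction 24.1% of all genes tested reach that p. Groups did not overlap for 10 lower and 1 higher, against 15.8% and 16.8% of all genes tested. DESeq2 called 4 lower and 1 higher, and limma-voom 7 lower and 1 higher, where they called 11.1% and 19.5% of all genes. Of 15 germ cell markers 1 rose, Mael, and the sums were 5475 to 5963 CPM in knockouts and 4184 to 5387 CPM in controls. Dazl, whose level is given above, is 1 of these genes and made up a large part of each sum. The median log2 fold change of these markers was −0.39, with 6 lower and 4 higher at an unadjusted edgeR p under 0.05. DESeq2 called 1 of the germ cell markers lower and 4 higher, and limma-voom called 5 lower and 3 higher. T lymphocytes carry THY1: of 7 tested markers 2 rose, Cd3g and Lck, and the 9 listed genes summed to 55.1 to 71.5 CPM in knockouts and 26.3 to 34.0 CPM in controls. Cd3e, a chain that defines T cells, was at 1.18 to 1.35 CPM in knockouts and 0.46 to 1.04 CPM in controls. Cd5 was at 0 reads in knockout 1, knockout 2 and control 3.

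Stromal markers, which include genes of fibroblasts, summed to 1518 to 1662 CPM in knockouts and 724 to 1079 CPM in controls, and Lum and Dcn rose among 6. Myoid markers summed to 163 to 233 CPM in knockouts and 64.5 to 80.7 CPM in controls, with Acta2 and Actg2 called higher among 5. Sertoli markers summed to 504 to 656 CPM in knockouts and 289 to 380 CPM in controls, with Clu and Inha called higher among 8, while Amh was at 0.09 to 0.18 CPM in knockouts and 0 to 0.19 CPM in controls. Endothelial markers, of which none of 7 was called, summed to 56.2 to 64.1 CPM in knockouts and 38.0 to 41.8 CPM in controls. Macrophage markers, of which none of 8 was called, summed to 2071 to 2931 CPM in knockouts and 852 to 1908 CPM in controls. Leydig markers, of which none of 6 was called, summed to 45.2 to 62.4 CPM in knockouts and 23.2 to 60.8 CPM in controls. Red cell markers, of which none of 4 was called, summed to 7.44 to 9.48 CPM in knockouts and 3.92 to 22.6 CPM in controls. Of the 4 lists without an edgeR call, unadjusted p values under 0.05 were found for 2 endothelial genes (Tie1 and Emcn), 3 macrophage genes (C1qa, C1qc and Lyz2) and 1 Leydig gene (Cyp17a1), all higher, and for 1 red cell gene (Hba-a1), which was lower. DESeq2 called 2 endothelial, 2 macrophage, 1 Leydig and 1 red cell gene, all but the red cell gene higher. Limma-voom called 1, 2, 1 and 1, of which Mrc1, a macrophage gene, and the red cell gene were lower. Over all genes tested, 24.1% had such an unadjusted p in either direction, and DESeq2 and limma-voom called 11.1% and 19.5%. The genes of the 4 lists, with Cd3e, Cd5 and Amh, were named after their values were seen. CD9, CD24, MCAM and integrin chains are also made by cells of these types, and the part of such cells in the values of the markers was not tested.

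The genes whose profile over the 6 libraries lay nearest to that of Itga6 were Kmt2d, Prrc2b and Mib1. Likeness was the root mean square difference of log2(CPM + 1) after centring each gene on its own mean, among protein-coding genes with a mean of at least 10 CPM. It was 0.02 for Kmt2d, 0.07 for Prrc2b and 0.08 for Mib1, where Itga6 itself varied by 0.50 around its mean. Their log2 fold changes were −1.08, −0.93 and −0.92, a direction fixed by their choice for likeness to Itga6. Nearest to Thy1 were Ctdp1, Gucy2c and Agap3, each at 0.07, where Thy1 varied by 0.39. Their log2 fold changes were −0.38, −0.40 and −0.33, again set by the choice.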

How the data were processed

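The authors deposited whole-number read counts, 1 row for each Ensembl gene. Per the labels' protocols, RNA was copied from an oligo-dT primer and amplified by PCR (SMART-seq2), and libraries were read from both ends at 150 bp. The method adds no molecular identifiers and keeps no strand, so PCR copies count as reads and antisense genes cannot be separated. The submitters' processing notes name mm10, DESeq2, edgeR, STAR 2.7.5c, Trimmomatic 0.39 and StringTie 2.1.7, without their roles. The deposited sum and mean columns were not used. Which tool counted the reads is not given in the sources used here.

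Of 22579 gene identifiers, 22562 matched GENCODE M21. Counts were fitted with edgeR 4.0.16 in R 4.3.3 (quasi-likelihood, robust, TMM, filterByExpr, genotype as the sole term), with Benjamini-Hochberg adjustment over 14766 genes. SE was derived from the log2 fold change and its F statistic. DESeq2 1.42.0 and limma-voom with quality weights (limma 3.58.1) were alternatives. The stricter filter kept genes with at least 10 CPM in at least 3 libraries, and the length and GC correction took lowess trends (span 0.3) out of each library. The fits were tested on simulated data. RPKM is CPM per kilobase of merged exons. Ratios had 0.5 reads added to each count, and their exact permutation test ran over libraries. Members, lists and tests were chosen with earlier results of these data known. Named genes were the 9 markers, Ddx20, up to 6 called genes per list and the nearest profiles, and other names are marked. The labels do not tie libraries to animals, so p-values measure only the spread among these libraries, and that spread may be technical.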

Additional observations from a re-analysis of the deposited data

How the results depend on the processing

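The count of called genes was 713. It was 1378 with library size scaling, 1641 by DESeq2, 2882 by limma-voom, and 1 by edgeR and 469 by DESeq2 with knockout 1 and 2 as 1 library. Leaving out 1 library gave 3 to 839 genes: 5, 10 and 3 without knockout 1, 2 and 3, and 182 without control 2. The count of markers called was 1. It was 2 without a filter on low counts, 2 with a stricter filter, 2 with DESeq2 size factors, 3 with library size scaling, 4 by DESeq2, 4 by limma-voom and 0 with knockout 1 and 2 as 1 library. Leaving out 1 library gave 0 to 4 markers, 0 without any 1 knockout and 4 without control 3. The cause was not tested.

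The replicate number as a block, for which no shared animal or day is stated, gave 683 genes and 1 marker, Itga6, and it ended the calls of Gfra1, Ret and Mael. Over all genes tested, deviations of libraries with the same number correlated at −0.0042, 0.0088 and 0.0065. Those with different numbers correlated at −0.0160 to 0.0071. A pairing that affects some genes only would hardly show in such a correlation, so whether the libraries were paired remains unknown. Itgb1 turned from −0.03 to 0.0247 with a stricter filter, 0.0212 after the length and GC correction, and, with the pair as 1 library, 0.0188 by edgeR, 0.0171 by DESeq2 and 0.0511 by limma-voom. Without 1 library it ran from −0.13 to 0.0249. Epcam turned from 0.04 to −0.22 with library size scaling, −0.13 by limma-voom and −0.18 after the length and GC correction, and without 1 library it ran from −0.12 to 0.15. The difference in log2 ratio of Itga6 to Cdh1 was −0.10 and ran from −0.30 to 0.13 when 1 library was left out. The 7 other ratios kept a negative difference under all alternatives run. DESeq2 and limma-voom with the pair as 1 library, and the length of the longest transcript, were chosen after seeing the data. The stricter filter left out Thy1, and DESeq2 with the pair as 1 library gave it no adjusted p.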
